A study of Mus musculus with 2 samples.

Results

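Replacement histone variants are made from genes that lie outside the clusters of replication-dependent histone genes. The 10 genes described here were taken by symbol from a table of 23234 genes: H2afx, H2afz, H2afv, H2afy, H2afj and H2afb1 of the H2A class, H3f3a and H3f3b for histone H3.3, the linker histone gene H1f0, and Cenpa for the centromeric H3. All 10 had a row. The values come from RNA-seq of round spermatids, the haploid cells that follow meiosis, of the mouse strain C57BL/6. There was 1 library of wild-type animals and 1 labelled Epc-dKO, of animals deficient for Epc1 and Epc2. The sources used here give no age, alleles or Cre driver for the animals, nor whether cells of several animals were pooled.

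Canonical histones are supplied during DNA replication, whereas replacement variants are made throughout the cell cycle and are put into chromatin by their own chaperones. In haploid spermatids, which no longer replicate DNA, they are the histones that can exchange before transition proteins and protamines take over the packaging of the genome. Epc1 and Epc2 are subunits of the NuA4/TIP60 complex, which acetylates histones H4 and H2A and, through its ATPase Ep400, takes part in the exchange of H2A for H2A.Z.

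Levels are in FPKM, in which fragment counts are scaled for transcript length and library total, so that levels can be set side by side between genes. With 1 library per genotype there is no replicate spread, no test and no p-value, and the read depth is unknown. Differences are given as the log2 ratio of FPKM + 1 between libraries, with wild type as the denominator, and the words rose and fell are kept for genes whose ratio passed 2-fold. Genes that averaged at least 1 FPKM over both libraries are called expressed, which held for 7 of the 10. Of all 10438 expressed genes, 4.63% passed 2-fold in either direction, 2.75% upward and 1.88% downward, and the median log2 ratio was -0.05. The balance of directions depended on the scale, with 287 genes higher and 196 lower as deposited but 545 and 1054 after rescaling to TPM. Epc1 had 11.4 and 13.6 FPKM in the wild-type library and the Epc-dKO-labelled library, and Epc2 had 7.12 and 10.5, so the targeted genes were not lower in the latter. A gene-level value includes exons outside a deleted part and does not check the label. Markers of round spermatids were high in both, with 10 of 10 expressed and summed levels of 665 and 678 FPKM; the most abundant, the acrosome genes Spata16 and Acr, had log2 ratios of -0.01 and 0.16. In bulk RNA, fewer cells of a type and less RNA per cell cannot be told apart.

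The replacement variant genes spanned a wide range of levels, and 9 of the 10 stayed within 2-fold. Of the 10, 8 had a lower value in the Epc-dKO-labelled library, and H2afy and H2afb1 had a higher one. H2afb1 was the single gene past 2-fold, and it rose. By any amount, 54.4% of expressed genes were below 0, as were 5 of the 7 expressed members, and 58.2% of all genes above 0 in either library were, against 8 of the 10. The median log2 ratio was -0.31 over the 7 expressed members and -0.39 over all 10. H1f0, at 1.53 and 0.820 FPKM, passed the expression minimum only through the wild-type library. It is among the 5 expressed members below 0 and enters the median of -0.31. H2afb1 passed the expression minimum only through the library in which it was high, so the count of 1 says little about these genes as a set. Their summed level was 102.7 FPKM in wild type and 92.2 in the Epc-dKO-labelled library. H3f3a, H2afz and H3f3b made up 75.7% of that sum in the former and 70.6% in the latter. That sum includes H2afb1, whose 0.924 and 5.30 FPKM work against the drop in the total and lower the share in the latter.

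**Figure D1:**
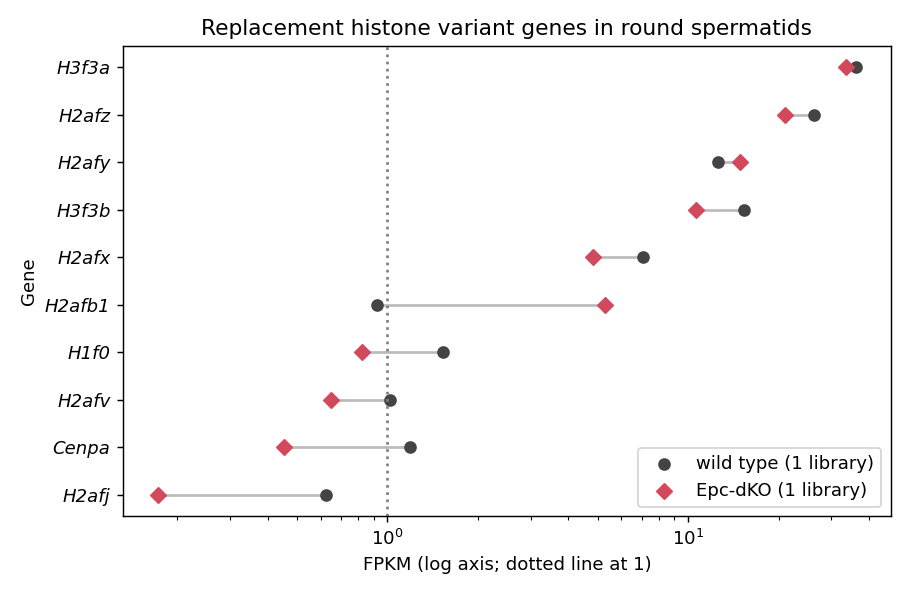
FPKM of the 10 replacement histone variant genes on a log axis, with 1 point per library (circles, wild type; diamonds, Epc-dKO) and a dotted line at 1 FPKM. The points of H2afb1 lie farthest apart, at 0.924 and 5.30, and the 4 lowest genes reach below 1 FPKM in the Epc-dKO-labelled library.

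Histone H3.3 is encoded by H3f3a and H3f3b, which give the same protein from separate genes, and is the H3 that HIRA and the DAXX-ATRX pair place in chromatin without replication. H3f3a was the highest of the 10 in both libraries, with 36.1 FPKM in wild type and 33.5 in the Epc-dKO-labelled library (log2 ratio -0.11). H3f3b had 15.4 and 10.6 (-0.50). H3f3a thus stood at 2.35 times the level of H3f3b in the wild-type library and at 3.16 times in the other, and whether that shift exceeds the spread between animals cannot be tested here. Both genes lay among the more abundant transcripts, since 94.8% of all genes had less than H3f3a and 88.8% had less than H3f3b in the wild-type library. The coding sequences of the pair are 411 nt long and agree at 76.9% of positions in GENCODE M21, so most fragments can be told apart, but processed pseudogenes of H3f3a and an antisense gene across its locus are annotated, and the strand setting of the counting is not given in the sources used here.

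The 250 bases upstream of the RefSeq start of these genes (build GRCm38.p6, not the mm9 build of the expression values) are shown because one protein comes from 2 unlike promoters. Capitals mark matches on either strand to 4 motifs. The CCAAT box is spelled by its name, the GC box was searched as GGGCGG, the TATA box was searched as TATAAA, and the core of the cAMP response element was searched as TGACG. None of these spellings contains another. The first window is chr1:180813606-180813855, minus strand, and the second is chr11:116024505-116024754, minus strand.
H3f3a: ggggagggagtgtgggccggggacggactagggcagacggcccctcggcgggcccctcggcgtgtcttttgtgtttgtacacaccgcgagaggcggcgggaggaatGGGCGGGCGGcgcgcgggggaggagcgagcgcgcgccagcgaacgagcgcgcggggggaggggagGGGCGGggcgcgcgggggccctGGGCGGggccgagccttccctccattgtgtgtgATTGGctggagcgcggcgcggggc
H3f3b: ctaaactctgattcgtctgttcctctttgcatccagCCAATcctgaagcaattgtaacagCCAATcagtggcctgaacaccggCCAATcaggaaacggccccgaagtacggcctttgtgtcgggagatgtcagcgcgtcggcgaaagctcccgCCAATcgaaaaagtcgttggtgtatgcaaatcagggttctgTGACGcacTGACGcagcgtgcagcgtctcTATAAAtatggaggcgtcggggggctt
The H3f3a window held 4 GC boxes, a pair of them overlapping, and 1 CCAAT box, with 77.2% G and C. The H3f3b window held 4 CCAAT boxes, 2 cAMP element cores and 1 TATA box, and no GC box, with 54.0% G and C. Among 32851 RefSeq windows of this length, 33.8% held a CCAAT box, 32.7% a GC box, 12.4% a TATA box and 17.8% a cAMP element core. Of the 8 members other than H2afb1 with a window, 6 held a CCAAT box, 5 held a GC box, and 1, H3f3b, held a TATA box and the cAMP element core. H2afx was without an entry. These matches describe letters only.

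**Figure D2:**
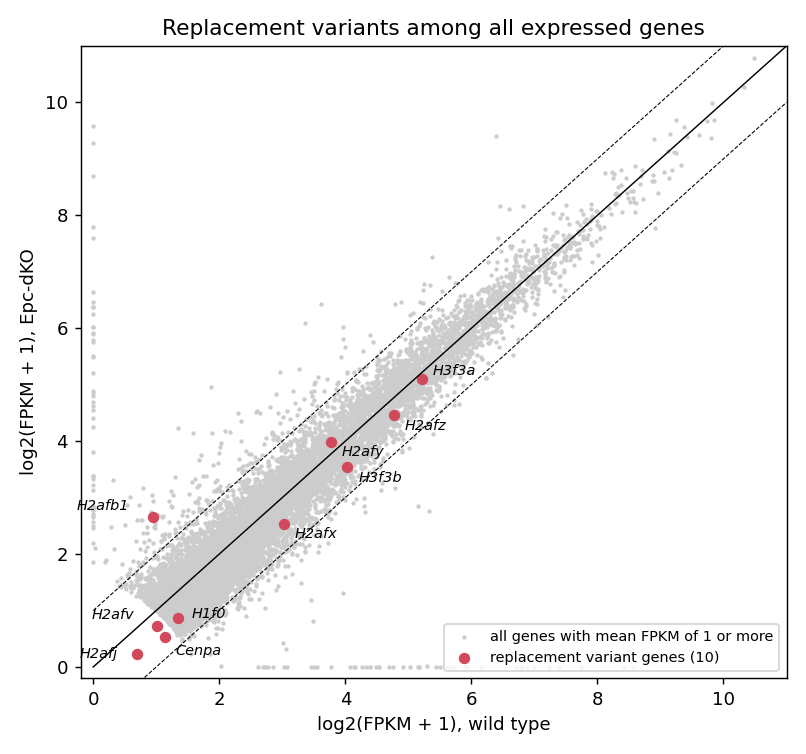
log2(FPKM + 1) of each gene in the wild-type library (x) and the Epc-dKO-labelled library (y). Grey points are the 10438 expressed genes, red points the 10 replacement variant genes, the solid line marks equal values and the dashed lines 2-fold; H2afb1 is the red point outside the dashed lines.

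H2A.Z marks promoters and is exchanged for H2A by the SRCAP and TIP60/p400 machines. Its genes H2afz and H2afv encode near-identical proteins from coding sequences that agree at 79.1% of 387 positions. H2afz was the second highest member, with 26.3 FPKM in wild type and 21.0 in the Epc-dKO-labelled library (log2 ratio -0.31). H2afv had 1.02 and 0.649 (-0.29) and was not expressed by the minimum used. By FPKM nearly all H2A.Z transcripts were those of H2afz, which stood at 25.8 times the level of H2afv in the wild-type library and 32.3 times in the other.

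The other H2A genes split by direction. H2afx, whose product is phosphorylated at DNA breaks and on the sex chromosomes in meiosis, had 7.11 FPKM in wild type and 4.81 in the Epc-dKO-labelled library (log2 ratio -0.48). H2afy, for macroH2A1, a variant with a large macrodomain that is enriched on silent chromatin, had 12.6 and 14.9 (0.23). The level of H2afy was 1.77 times that of H2afx in the wild-type library and 3.10 times in the other. The related rows H2afy2, for macroH2A2, and H2afy3, which GENCODE lists as a processed pseudogene, also had the higher value in the Epc-dKO-labelled library, with log2 ratios of 0.45 each, from 2.25 to 3.44 FPKM and from 1.79 to 2.83 FPKM. All 3 macroH2A rows thus lay above 0 without passing 2-fold. H2afj, for H2A.J, a variant that differs from canonical H2A mainly at its C-terminal end, was the lowest member, with 0.627 and 0.173 FPKM (-0.47).

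H1f0 and Cenpa were low in both libraries. H1f0, for the linker histone H1.0 of resting and differentiated cells, had 1.53 FPKM in wild type and 0.820 in the Epc-dKO-labelled library (log2 ratio -0.47). Cenpa, for the H3 variant that defines the centromere and is loaded after mitosis, had 1.19 and 0.453 (-0.59). The added 1 weighs heavily at such levels. Without it, in a calculation chosen after the values were seen, H2afj was 3.63-fold, Cenpa 2.63-fold and H1f0 1.86-fold lower in the Epc-dKO-labelled library. Of 6248 genes averaging from 0.25 to under 2 FPKM, 20.1% were at least 2-fold lower on the same scale. The share past 2.63-fold or 3.63-fold was not counted.

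H2afb1 rose from 0.924 FPKM in the wild-type library to 5.30 in the Epc-dKO-labelled library, a log2 ratio of 1.71 and a 5.73-fold difference without the added 1. It went from the level of a gene above 53.5% of all genes to above 78.1%. The symbol needs care, because RefSeq lists H2afb1 as an older name of 2 genes. One is H2ab1 on the X chromosome, for H2A.B, a short variant that makes loosely wrapped nucleosomes. The other is H2al2a on chromosome 2, for H2A.L.2, which enters chromatin together with transition proteins in late spermatids. Their coding sequences, of 348 and 336 nt, agree at 49.6% of aligned positions. The table has a separate row under Gm14920, another older name of H2ab1 alone, and H2al2a has no row under any other of its names. The H2afb1 row may therefore be H2al2a, but the table gives no identifier that settles it.

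Gm14920, chosen after its value was seen, went the other way. It had 5.96 FPKM in wild type and 2.53 in the Epc-dKO-labelled library, a log2 ratio of -0.98 that just missed the 2-fold rule, and was 2.36-fold lower without the added 1. The X-linked H2A.B genes are close copies, H2afb1 of GENCODE agreeing with H2afb3 at 98.3% and with H2afb2 at 93.1% of coding positions, so reads can be shared among them and the level of a single copy is uncertain. The 250 bases upstream of both candidates for the H2afb1 row follow, marked by the same motifs, because the name covers loci on different chromosomes. The first window is chrX:117014507-117014756, plus strand, and the second is chr2:17996959-17997208, minus strand.
H2ab1: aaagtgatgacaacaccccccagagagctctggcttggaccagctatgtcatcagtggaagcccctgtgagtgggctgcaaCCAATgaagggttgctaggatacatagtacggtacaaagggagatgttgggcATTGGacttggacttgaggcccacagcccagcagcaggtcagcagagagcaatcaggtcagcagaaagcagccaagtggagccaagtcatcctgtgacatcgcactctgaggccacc
H2al2a: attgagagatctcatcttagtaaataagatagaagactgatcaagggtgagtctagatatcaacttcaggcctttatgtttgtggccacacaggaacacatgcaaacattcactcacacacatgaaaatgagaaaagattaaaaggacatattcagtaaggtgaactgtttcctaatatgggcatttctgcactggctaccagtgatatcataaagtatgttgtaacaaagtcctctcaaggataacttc
The H2ab1 window held 2 CCAAT boxes and none of the other motifs. The H2al2a window held none of the 4 motifs and had 37.2% G and C, against 54.8% in the H2ab1 window.

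Genes listed as markers of late spermatids and of spermatogonia also differed between the libraries. Of 9 late spermatid markers, all were above 0 and 6 rose, with a median log2 ratio of 1.72 and summed levels of 1438 FPKM in wild type and 2680 in the Epc-dKO-labelled library. The 6 were Prm1 and Prm2 for protamines (2.82 and 3.01), Tnp1 and Tnp2 for transition proteins (1.84 and 1.89), the fibrous sheath gene Akap4 (1.17) and Spem1 (1.72), needed for removal of cytoplasm; Odf2, an outer dense fibre gene and the most abundant, had 0.17. H2afb1, at 1.71, lay at the level of this list's median on this scale only. It had 2.40 against a median of 1.82 with a pseudocount of 0.1, and 2.27 against 1.78 on the TPM scale. With 2 libraries, a like ratio does not show a shared pattern. Of 15 spermatogonial markers 11 were expressed, all 11 were below 0 and 2, Dmrt1 (-1.29) and Crabp1 (-1.07), fell. The median of the 11 was -0.75, and Dazl, the most abundant, had -0.92. Over all 15, 13 were below 0, while Id4 (0.39) and Utf1 (0.14), under the minimum, were above. Sall4, Lin28a and Gfra1 were under 1 FPKM in the Epc-dKO-labelled library and passed the minimum only through wild type. Summed levels of the 15 were 43.5 and 20.9 FPKM. The count of spermatogonial markers that fell depended on the scale: it was 5 with a pseudocount of 0.5, 7 with 0.1, 8 on the TPM scale and 0 with a minimum mean FPKM of 5, and the median reached -1.09 with a pseudocount of 0.1. Among 9 genes of replicating cells, 8 lay below 0, with a median of -0.60, while summed levels were 164.0 and 159.4 FPKM. The helicase genes Mcm2 (-1.11) and Mcm5 (-1.01) fell, while Mcm7 (0.25) and Top2a (-0.14), the most abundant, did not pass. The count that fell was 3 with a pseudocount of 0.1 and on the TPM scale. It was 1 after rescaling to a median ratio of 1, and 0 with a minimum mean FPKM of 5. Both H2A.Z and H3.3 are made in other germ cells too. Whether the late spermatid values come from later cells or from the round spermatids themselves was not tested. The part of other cells in the values of the 10 genes was not tested either.

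Spermatocyte markers lay near 0 (median -0.06 over 9, summed levels 284 and 287 FPKM, none past 2-fold, Stag3 at 0.09 and Syce1 at -0.01), and 1 of them fell with pseudocounts of 0.1 and 0.5 and on the TPM scale. The summed level of Sertoli cell markers was 15.1 and 9.56 FPKM, with 3 of 11 expressed, none past 2-fold, and Clu (-0.63) and Inha (-0.51) the highest. That of peritubular and stromal markers was 14.4 and 7.07, with 3 of 8 expressed, none past 2-fold, and Acta2 (-0.58) and Myh11 (-0.67) the highest; 1 fell with pseudocounts of 0.1 and 0.5, and 3 on the TPM scale. Leydig cell markers summed to 32.5 and 25.0, with 7 of 8 expressed and a median of -0.03. Insl3 (-1.03), at 14.9 FPKM in wild type and 6.79 in the Epc-dKO-labelled library, fell, and Cyp17a1 had 0.16. After rescaling to a median ratio of 1, 0 Leydig cell markers fell. Of 9 endothelial, blood and immune markers only Vwf (-0.12) was expressed, Kdr (-0.23) was next, and the globin genes Hba-a1 and Hbb-b1 were listed at 0 in both libraries.

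The clustered histone genes had a larger drop in summed level than the replacement variants, a difference that 1 library per genotype cannot test. They supply canonical histones to replicating cells, apart from testis genes such as the 3 described below. Those 3 summed to 65.7 FPKM in wild type and 32.2 in the Epc-dKO-labelled library and are counted among the clustered genes here. Of 68 clustered genes 41 were expressed, 10 fell (17 with a pseudocount of 0.1 and 25 on the TPM scale) and 0 rose, with a median log2 ratio of -0.67, and their summed level was 236.5 FPKM in wild type and 120.3 in the Epc-dKO-labelled library, 0.509 times as high. The same sum for the 10 replacement genes was 0.897 times as high, with the rise of H2afb1 counted in. Within class H3, H3f3a and H3f3b held 83.8% of the FPKM of H3 genes in wild type and 90.0% in the other, as the 12 clustered H3 genes went from 9.94 to 4.90 FPKM in sum. Within class H2A, the 6 replacement genes went from 48.6 to 46.8 FPKM and the 18 clustered genes from 98.4 to 52.9, so the replacement share was 33.0% and 46.9%. The 6 include H2afb1, at 0.924 and 5.30 FPKM, which holds up their sum in the Epc-dKO-labelled library. The 18 include the testis gene Hist1h2aa, at 28.9 and 12.9 FPKM. H1f0 held 4.86% and 5.60% of the FPKM of H1 genes. Clustered histone transcripts mostly lack a poly(A) tail, and how RNA was selected for the libraries is not given in the sources used here, so the shares hold for these libraries only. Clustered genes are also near-identical to each other, and 62 of 67 with an entry have a single exon in their longest coding transcript, as do 3 of the 9 replacement genes other than H2afb1 (H2afx, H2afj and H1f0).

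**Figure D3:**
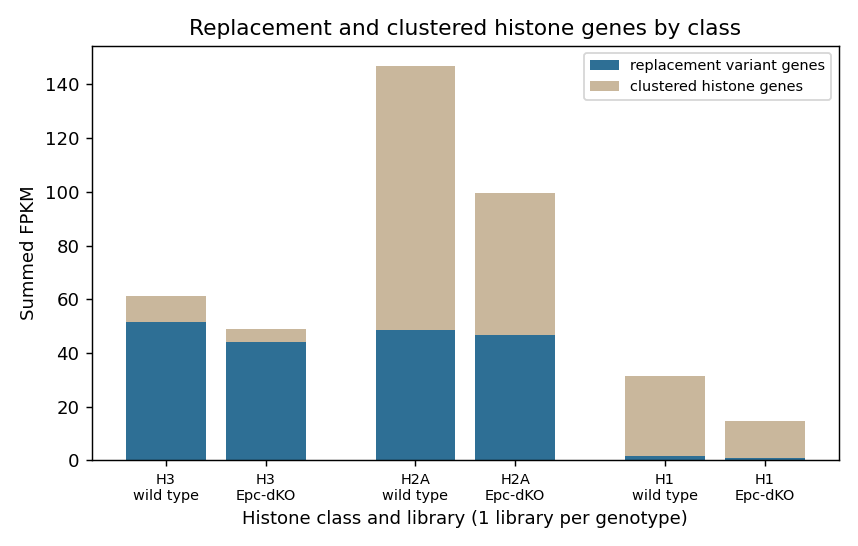
Summed FPKM of replacement variant genes (blue) and clustered histone genes (tan) in each library, for classes H3 (2 replacement and 12 clustered genes), H2A (6 and 18) and H1 (1 and 6). The tan parts are lower in the Epc-dKO-labelled library in all 3 classes, while the blue part of H2A is 48.6 and 46.8 FPKM, with H2afb1 counted at 0.924 and 5.30.

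On the scale with the added 1, the testis histone genes of the clusters went lower than the replacement genes in 2 of 3 cases. Hist1h2ba and Hist1h2aa, for the testis H2B and its H2A partner, fell (log2 ratios of -1.13 and -1.10), and Hist1h1t, for the testis linker histone, had -0.01. With a pseudocount of 0.1, H2afj (-1.41) and Cenpa (-1.22) went lower than the median of these 3 genes (-1.15). Of the remaining histone genes outside the clusters, H1fx, for linker histone H1.10, had 6.32 FPKM in wild type and 5.89 in the Epc-dKO-labelled library (-0.09), and the oocyte linker gene H1foo had 0.178 and 0.0805.

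The genes that handle these variants or histones in general, and those that signal around phosphorylated H2A.X, lay close to the middle of the transcriptome. Over 5 lists with 45 expressed genes, 0 rose and 0 fell, against 2.75% and 1.88% of all expressed genes, and the median log2 ratio was -0.10. The 0 that fell became 1, in the list for CENP-A loading, with pseudocounts of 0.1 and 0.5 and on the TPM scale. The H3.3 chaperone genes had a median of 0.00 over 7 expressed of 8. Daxx, the most abundant, had 50.0 FPKM in wild type and 35.2 in the Epc-dKO-labelled library (-0.50), Ubn2, of the HIRA complex, had 0.20, and Hira itself had 2.13 and 1.46 FPKM (-0.35). H2A.Z exchange genes had a median of -0.08 over 10 expressed of 11, and Srcap, also listed, had no row. The ATPase gene Ep400 had 122.5 and 105.2 FPKM (-0.22), Ruvbl2, for a helicase shared by the exchange complexes, had 84.9 and 80.9 (-0.07), and Anp32e, for the chaperone that removes H2A.Z, was under 1 FPKM in both.

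Genes for CENP-A loading had a median of -0.08 over 7 expressed of 8, and Mis18a, also listed, had no row. Hjurp, for the CENP-A chaperone, had 4.45 FPKM in wild type and 3.04 in the Epc-dKO-labelled library (log2 ratio -0.43), and was thus higher than Cenpa in both libraries. The nucleolar chaperone gene Npm1 (0.05) and the centromere gene Cenpn (0.42) were the most abundant of this list, and Rbbp7, for a histone-binding protein, had the lowest ratio at -0.92. Genes of signalling around phosphorylated H2A.X had a median of -0.13 over 9. Mdc1, whose product binds the phosphorylated tail, had 34.4 and 40.6 FPKM (0.23), Ube2n, for a ubiquitin-conjugating enzyme, had 25.1 and 29.8 (0.24), and Rnf8, for the ubiquitin ligase recruited by MDC1, had 4.24 and 2.47 (-0.59). General histone chaperones had a median of -0.15 over 12, with Nasp, for an H3-H4 chaperone abundant in testis, at 472 and 419 FPKM (-0.17) and Chaf1a, for a subunit of the replication-coupled assembly factor, at 85.0 and 84.4 (-0.01).

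**Figure D4:**
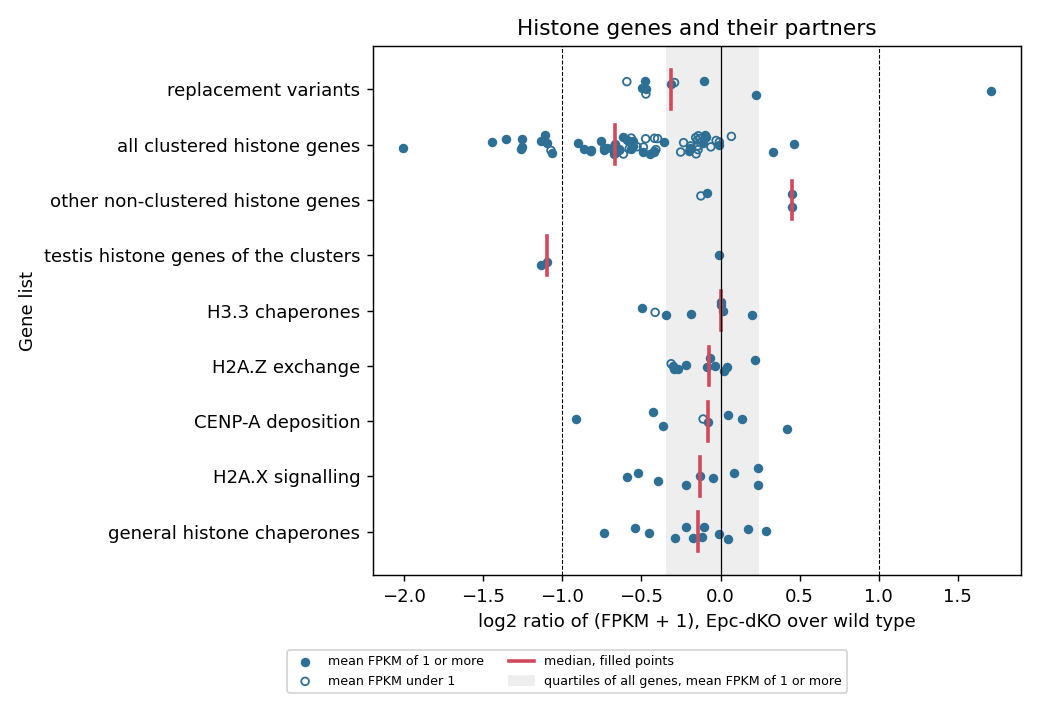
log2 ratio of FPKM + 1 in the Epc-dKO-labelled library over the wild-type library for each gene (points; filled at a mean FPKM of 1 or more, open below), with the median of the filled points as a red bar, the quartiles of all expressed genes in grey and dashed lines at 2-fold. Replacement variants centre at -0.31 with H2afb1 apart at 1.71, clustered histone genes at -0.67, and the 5 partner lists between -0.15 and 0.00.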

How the data were processed

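RNA-seq of mouse round spermatids was available as 1 library per genotype, grouped by the genotype labels. The authors deposited 1 FPKM value per gene and library; Cufflinks 2.2.1 and mm9 are named in the submitters' processing notes. The sources used here do not state the aligner, annotation, strand setting or scaling, and depth is unknown. Directional libraries were made from total RNA and amplified by PCR, per the labels' protocols. Of 23235 rows, 1 held no gene and was left out. Listed genes without a row under their symbol (Srcap, Mis18a, Meiob, Rhox5, H2afb2, H2afb3 and H3f3c) were not counted. Ratios used a pseudocount of 1, a minimum mean FPKM of 1 and a 2-fold rule of size. The 10 members and all lists were chosen with earlier results of these data known. Named are the members and, in each partner and marker list, genes past 2-fold and the 2 most abundant; other genes named (among them Hira, Anp32e, Hjurp, Rbbp7, Rnf8, H1foo and Gm14920) were chosen after their values were seen. Alternatives used pseudocounts of 0.1 and 0.5 or none, other scalings, minimums and folds. Older symbols, promoters and their positions come from RefSeq (GRCm38.p6), and exons and coding sequences from GENCODE M21; sequences were aligned with Biopython 1.88. Python 3.11.15, NumPy 2.4.6, pandas 2.3.3 and Matplotlib 3.10.9 were used.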

Additional observations from a re-analysis of the deposited data

How the results depend on the processing

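No member reversed its direction under any alternative tried, and H2afb1 stayed between 1.67 and 2.52 on the log2 scale; 64 of 70 values of members kept their side of the 2-fold rule. The other 6 were H2afj and Cenpa, which fell past 2-fold with a pseudocount of 0.1 (-1.41 and -1.22), with both libraries rescaled to the TPM scale (-1.18 and -1.12), and with no pseudocount, chosen after seeing the data (-1.86 and -1.40). The number of members that fell was thus 2 in each of these 3 settings, against 0 as reported. It was 1 under a 1.5-fold rule, and the number that rose was 0 under a 4-fold rule. As deposited, H2afj and Cenpa averaged under 1 FPKM, and the counts over all genes in the same settings are given below. The median of members became -0.55 on the TPM scale, where more genes pass the minimum. The median of H3.3 chaperone genes became -0.13 in that setting, and with a minimum mean FPKM of 5 the medians of H2A.X signalling genes and of other non-clustered histone genes became 0.0180 and -0.0868; fewer genes are counted there. The number of clustered histone genes that fell ranged from 1 (4-fold rule) to 25 (TPM scale). Counts of spermatogonial, spermatocyte, peritubular and CENP-A loading genes that fell became 7, 1, 1 and 1 with a pseudocount of 0.1 or none and to 8, 1, 3 and 1 on the TPM scale, against 2, 0, 0 and 0 as reported. Under the 4-fold rule 2 late spermatid markers rose, against 6, and 0 spermatogonial, Leydig, replicating cell and testis histone genes fell; with a minimum mean FPKM of 5, 0 spermatogonial and 0 replicating cell markers fell. Of all 10438 expressed genes, 433 rose and 652 fell with a pseudocount of 0.1, and 346 and 364 with 0.5, against 287 and 196 as reported. Under the 1.5-fold rule 837 of them rose and 1127 fell, and under the 4-fold rule 76 and 59. On the TPM scale 545 rose and 1054 fell of 15151 genes, and with no pseudocount 417 and 707 of 10336. Among the rescalings, the TPM scale shifted the all-gene median the most, by -0.0829 on the log2 scale. No paired analysis was possible because there is a single library on each side. Depth is unknown, which limits what can be said of the low genes H2afj, H2afv, Cenpa and H1f0.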

Other observations

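H2A.L variants are short, testis-specific H2A proteins of late spermatids, and most of their genes lie in an X-linked multicopy family. Of 21 RefSeq genes of the H2A.L and H2A.B families, 18 had a row under a current or older name. The 16 rows other than H2afb1 and Gm14920 had 0 to 1.75 FPKM in the wild-type library and 0 to 1.48 in the library labelled Epc-dKO, with sums of 9.14 and 7.22. Of these, 10 lay below 0, 5 above and 1 was listed at 0 in both. H2al3, listed as 4930557A04Rik, had 0.857 and 1.48 FPKM, and H2al1i, listed as Gm14475, had 1.75 and 0.203. Copies of this family share sequence, so single values are uncertain; these genes were chosen after their values were seen.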
